A study of Mus musculus with 16 samples.

Results

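Transforming growth factor beta (TGF-beta) signalling was described through 10 genes in sorted microglia, the resident macrophages of the brain. The genes were a fixed list by symbol: the ligand gene Tgfb1, the activator gene Nrros, the receptor genes Tgfbr1 and Tgfbr2, the SMAD genes Smad2, Smad3 and Smad7, the co-repressor genes Ski and Skil, and the target gene Pmepa1. All 10 were found among the 53850 genes of the deposited table, and all 10 were among the 19594 that passed the filter on low values. That filter kept genes reaching 10 in 4 or more libraries, and the lowest value of any of the 10 genes was 1444, so no group decided whether they passed.

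TGF-beta is made as a latent protein that must be released before it can act. The protein of Nrros holds the latent form of TGF-beta1 at the microglial surface, where an integrin activates it. The active ligand binds the type II receptor, which switches on the type I receptor, and that kinase phosphorylates SMAD2 and SMAD3. SMAD7, SKI and SKIL hold the signal down, and in the adult brain the pathway is known for keeping microglia in their resting state.

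The mice were C57BL/6J, described as young with no age given, and the cells came from the cortex by fluorescence-activated sorting. For 1 week they were fed control chow or chow holding PLX3397, which blocks the CSF1 receptor on which microglia depend for survival. The 4 groups were males on PLX3397, males on control chow, females on PLX3397 and females on control chow, with 4 libraries each and no allele or other agent named in any group. The series asks why the loss of microglia under the inhibitor differed by sex, so the cells measured on PLX3397 are those that remained. Replicates are labelled as separate samples, but nothing says that they came from separate animals. The p-values therefore measure the spread between these samples.

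Libraries summed to between 32600000 and 44200000 normalised read counts, and the smallest steps between low values put the reads at about 22300000 to 77700000. Of 10 microglial markers none was at 0 in any group, and their summed level was 2400000 to 2570000 in male controls against 1170000 to 1730000 in males on PLX3397. In females it was 2230000 to 2770000 against 1840000 to 2100000. Neutrophil markers summed to 531 to 3668 in male controls and 10696 to 75471 in males on PLX3397. There 9 of the 11 tested rose, beside 4.16% of all genes. In females these markers summed to 203 to 271 and 1046 to 3493, and 6 of 11 rose, beside 2.67% of all genes. In female controls 8 of the 12 neutrophil markers, S100a8 and Ly6g among them, were at 0 in all 4 libraries. The 11 markers of border-associated macrophages, which lie at the brain's surfaces and vessels, summed to 26164 to 29469 and 19485 to 23866 in males and to 27563 to 34001 and 19561 to 23104 in females, control chow first. Of these 11, all tested, 7 fell in males and 5 in females, beside 7.52% and 2.67% of all genes, and 0 rose. Their median change was -2.78 in males and -2.51 in females (log2), a larger fall than that of the sums. Lyve1 and Cd209f were at 0 in all 4 males on PLX3397. The 8 monocyte markers summed to 631 to 1015 and 1055 to 6594 in males, in the same order. In females they summed to 594 to 781 and 584 to 913. Of the 6 tested, 0 passed in either sex, and in males Ccr2 changed by -0.88 and Ly6c2 by 3.82 (log2). The mitochondrial share of counts was 0.297% to 0.325% in male controls and 0.591% to 0.676% in males on PLX3397. In females it was 0.273% to 0.353% on control chow and 0.355% to 0.455% on PLX3397, also without overlap. The part of that share and of these markers in the changes below was not tested, and in sorted bulk samples fewer cells of a type and less RNA per cell cannot be told apart. Male control replicate 4 stood apart by its Xist value of 516, against 14.7 to 31.4 in the other males. Male PLX3397 replicate 3 stood apart by its S100a8 value of 14419, against 2020 to 3184 in its group.

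Promoter windows of the receptor and activator genes are shown, and a SMAD-binding element was looked for in them. These genes were lower in males on PLX3397, as were Ski, Pmepa1 and Smad2. RefSeq sequences (GRCm38.p6) covering 250 bases before a transcription start were matched by symbol. Windows of 6 of the 10 genes were used, with 2 starts for Tgfbr1. No window of the remaining genes is reported, so nothing is said of the element in them. Capitals mark CAGAC, the core of the SMAD-binding element, searched on both strands. The first is the second start of Tgfbr1 (chr4:47385966-47386215, plus strand), then Tgfbr2 (chr9:116175364-116175613, minus strand) and Nrros (chr16:32165595-32165844, minus strand), each printed 5′ to 3′ towards its start. By GENCODE M21 the Tgfbr1 window lies in an intron of Tgfbr1, and the windows of Tgfbr2 and Nrros overlap with no annotated gene.
Tgfbr1: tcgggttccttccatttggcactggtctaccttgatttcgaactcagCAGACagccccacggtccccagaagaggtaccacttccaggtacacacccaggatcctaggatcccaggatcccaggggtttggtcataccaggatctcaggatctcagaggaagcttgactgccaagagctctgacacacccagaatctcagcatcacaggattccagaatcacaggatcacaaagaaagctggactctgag
Tgfbr2: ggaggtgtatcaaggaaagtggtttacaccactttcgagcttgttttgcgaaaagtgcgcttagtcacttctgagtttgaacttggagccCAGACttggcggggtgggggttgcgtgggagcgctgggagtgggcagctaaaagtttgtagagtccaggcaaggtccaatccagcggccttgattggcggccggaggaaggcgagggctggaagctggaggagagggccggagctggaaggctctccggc
Nrros: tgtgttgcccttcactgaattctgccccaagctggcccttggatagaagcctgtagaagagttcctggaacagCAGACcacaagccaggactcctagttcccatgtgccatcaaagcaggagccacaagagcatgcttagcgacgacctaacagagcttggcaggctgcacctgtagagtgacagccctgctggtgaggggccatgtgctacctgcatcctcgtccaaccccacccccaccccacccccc
Each of these 3 windows held CAGAC once, on the strand of its gene. They were the only windows used that held it, so its presence in all 3 follows from which windows were printed. CAGAC was not among the letters of the first start of Tgfbr1 (chr4:47352972-47353221) or of the windows of Tgfb1, Smad3 and Ski. Over all 32851 windows of this length, 13861 (42.2%) held CAGAC, so a match is common. The GC-rich sequence GGCGC, to which SMADs also bind, occurred 2 times on the gene's strand and 1 time on the other at the first start of Tgfbr1, 5 and 2 times at Ski, and 1 and 0 times at Tgfb1, where matches on opposite strands can overlap in GGCGCC. By GENCODE M21 the Ski window overlapped with an annotated exon of Ski, and 87.6% of its bases were G or C. GGCGC was held by 32.0% of all windows. These are matches of letters, and no binding was measured.

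Per kilobase of exon, the type I receptor gene Tgfbr1 had the highest level of the 10 genes in every group. In male controls it stood at 7842 ± 620 normalised read counts per kilobase (SD, n = 4). Nrros followed at 5105 ± 483, above Pmepa1 at 3817 ± 444 and Tgfbr2 at 3734 ± 349, and these last neighbours did not differ beyond their spread. The ligand gene Tgfb1 lay at 1808 ± 121 and Ski at 1418 ± 83.9. Smad3 (698 ± 158), Skil (630 ± 53.5) and Smad7 (551 ± 73.7) overlapped in their values, and Smad2 was lowest at 321 ± 30.0. Female controls had the same 2 genes in front, Tgfbr1 at 8771 ± 556 and Nrros at 5087 ± 703, and the same gene last. On PLX3397 Nrros stood below Tgfbr2 in both sexes by its mean per kilobase, at 2457 ± 408 against 2539 ± 644 in males and 3243 ± 575 against 3703 ± 395 in females, differences within the spread. Pmepa1 moved from rank 3 to rank 5 in males, at 1358 ± 216 per kilobase, and stayed at rank 4 in females, at 2103 ± 381.

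**Figure D1:**
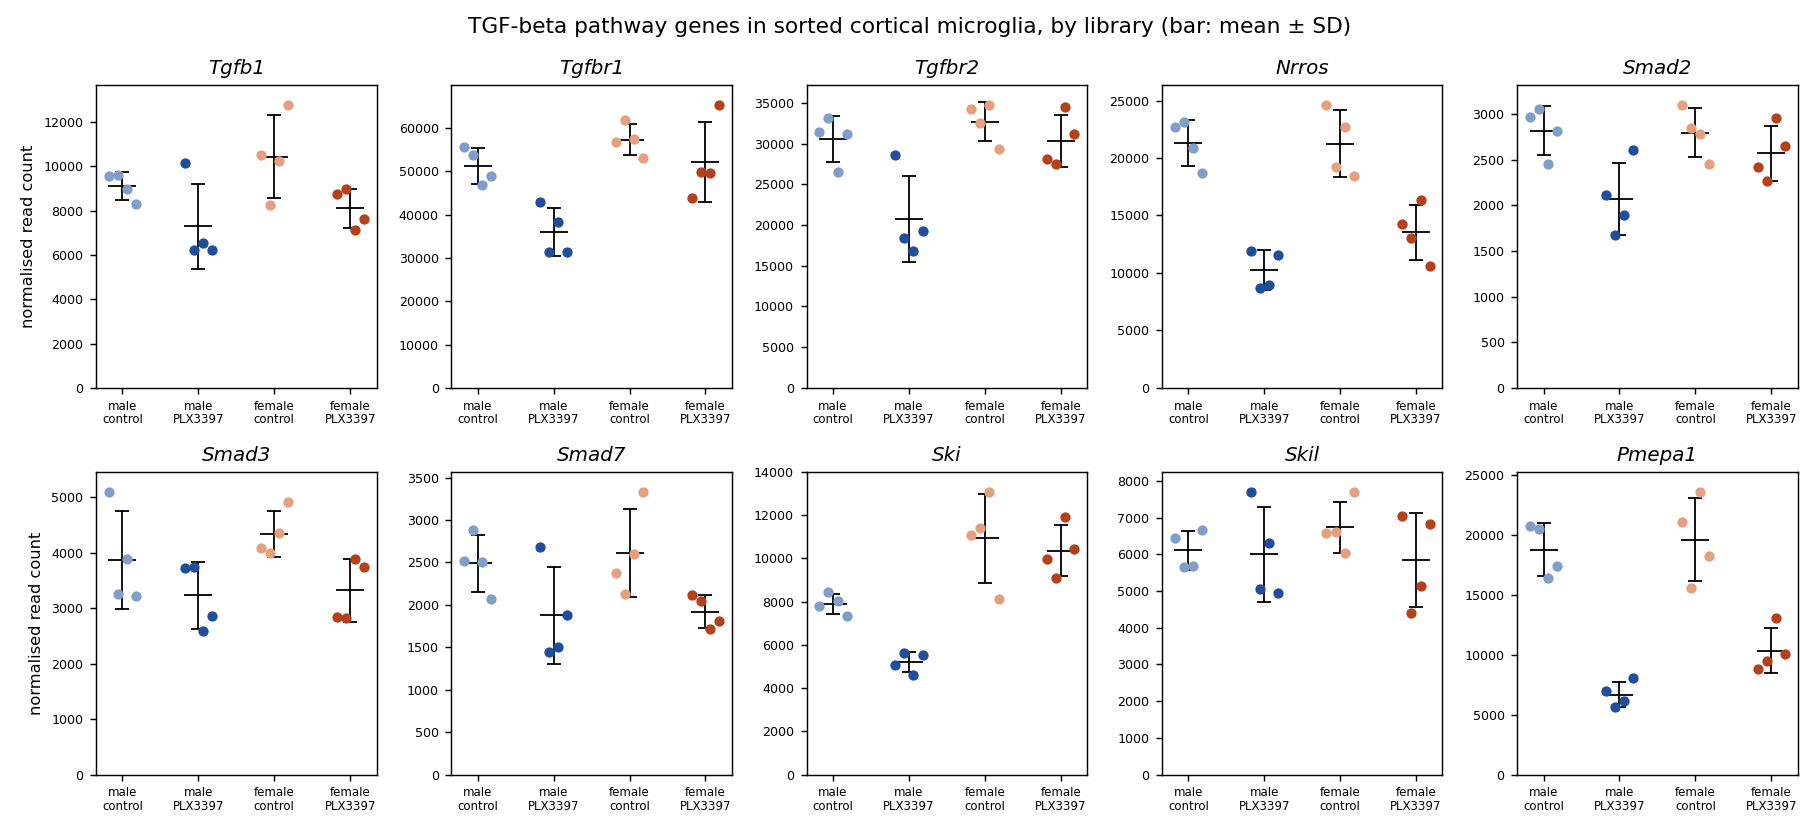
Normalised read count of each of the 10 genes in each library (points, replicates 1 to 4 from left to right), with the group mean and SD as bars, on linear axes from 0. Pmepa1 and Nrros were lower on PLX3397 than in every control library of the same sex, and Ski was lower in the 4 males on PLX3397 than in all other libraries.

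In males, 6 of the 10 genes fell on PLX3397 and 0 rose: Pmepa1, Nrros, Ski, Tgfbr2, Tgfbr1 and Smad2. A fall or rise here means an adjusted p under 0.05 in limma over all 19594 genes. Of all genes tested 11.7% changed, 7.52% fell and 4.16% rose. The groups did not overlap for 4 of the 10 genes (Tgfbr1, Nrros, Ski and Pmepa1), all lower, and for 9.84% of all genes in that direction. The median change of the 10 genes was -0.49 on the log2(value + 1) scale, beside 0.02 for all genes. Without the 2 libraries that stood apart, 4 of the 10 fell. Scaled to equal library totals, the calls over all genes went from 815 higher and 1474 lower to 1348 higher and 917 lower, and the median of all genes moved from 0.02 to 0.18. That scaling shifts every gene of a library alike. Quantile normalisation does not, and measured from the median of all genes it moved Tgfbr1 from -0.54 to -0.35, Tgfbr2 from -0.60 to -0.35 and Pmepa1 from -1.52 to -1.29.

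The target gene Pmepa1, which TGF-beta induces and whose product traps SMADs away from the receptor, had the largest fall of the 10 genes. It had 20740, 20471, 16397 and 17406 normalised read counts in male control replicates 1 to 4. On PLX3397 the males had 6931, 5616, 6104 and 8046. Every treated male lay below every male control, and the change was -1.50 ± 0.149 (log2 ± SE, adjusted p = 5.79e-06), to 35.4% of the control level. In females the values went from 21023, 15531, 23598 and 18201 to 8799, 9447, 13030 and 10062. These groups did not overlap either, and the change was -0.92 ± 0.149 (adjusted p = 0.0011), to 52.8%.

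Nrros, the gene of the protein that presents latent TGF-beta1, fell in both sexes. Male controls had 22674, 23096, 20840 and 18676 normalised read counts, and males on PLX3397 had 11897, 8655, 8935 and 11563. With no overlap between these groups, the change was -1.06 ± 0.141 (adjusted p = 9.0e-05), to 47.8% of the control level. Female controls had 24635, 19185, 22732 and 18437, and females on PLX3397 had 14264, 13025, 16315 and 10576. All 4 treated females lay below the lowest female control, by -0.66 ± 0.141 (adjusted p = 0.00965), to 63.4%. Both genes kept their calls in both sexes under all 28 alternatives.

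The ligand gene Tgfb1 did not pass the test in either sex. It ranged from 8312 to 9600 in male controls, and 3 of the 4 males on PLX3397 lay between 6225 and 6562. Replicate 1 had 10147, above every male control. The change was -0.35 ± 0.154 (adjusted p = 0.171), and without that library it was -0.52 (adjusted p = 0.014). Female controls ranged from 8242 to 12784 and females on PLX3397 from 7126 to 8960, with overlap, a change of -0.35 ± 0.154 (adjusted p = 0.243).

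Both receptor genes fell in males. Tgfbr1, the type I receptor kinase, had 55523, 53716, 46875 and 48837 normalised read counts in male controls. Males on PLX3397 had 42849, 31449, 38391 and 31412, all below the controls, and the change was -0.52 ± 0.118 (adjusted p = 0.00764). The call ended with voom weights (-0.35, adjusted p = 0.0618) and when library totals were made equal (-0.36, adjusted p = 0.0605). Tgfbr2, the type II receptor that binds the ligand first, had 31458, 33162, 26499 and 31168 in male controls and 28544, 18431, 16854 and 19311 in males on PLX3397. Replicate 1 of the treated males reached into the control range and the other treated males did not. The change was -0.58 ± 0.133 (adjusted p = 0.00798), and the call ended with quantile normalisation (-0.36, adjusted p = 0.0564) and without the 2 libraries that stood apart (-0.48, adjusted p = 0.0671).

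In females the receptor genes did not pass the test. Tgfbr1 had 56739, 61896, 57551 and 53054 in female controls and 43846, 49764, 49712 and 65381 on PLX3397, where replicate 4 was above every control and the other treated females were below them all. Its change was -0.15 ± 0.118 (adjusted p = 0.591). Tgfbr2 ranged from 29330 to 34767 in female controls and from 27455 to 34517 on PLX3397, with a change of -0.11 ± 0.133 (adjusted p = 0.757). The ratio of Tgfbr1 to Tgfbr2 within a library had means of 1.68 ± 0.103 in male controls, 1.78 ± 0.344 in males on PLX3397, 1.76 ± 0.122 in female controls and 1.73 ± 0.291 in females on PLX3397. None of its 4 comparisons passed, with an adjusted p of 0.686 or more by two-sided exact permutation.

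Among the SMAD genes, Smad2 fell in males, with the highest adjusted p of the 6 genes. Male controls had 2964, 3052, 2454 and 2811 normalised read counts, and males on PLX3397 had 2110, 1681, 1894 and 2602. Replicate 4 of the treated males lay above the lowest control. The change was -0.46 ± 0.136 (adjusted p = 0.0372), and the call ended under 14 of 28 alternatives, with an adjusted p of up to 0.157. Leaving out any of 6 male libraries ended it: PLX3397 replicates 1, 2 and 3 (adjusted p = 0.0579, 0.123 and 0.101) and control replicates 1, 2 and 4 (adjusted p = 0.0961, 0.105 and 0.0721). In females Smad2 changed by -0.12 ± 0.136 (adjusted p = 0.732).

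Smad3, the other SMAD phosphorylated by the receptor, did not pass in either sex. In females its groups nonetheless did not overlap: controls ranged from 3986 to 4903 and the treated from 2827 to 3892, a change of -0.39 ± 0.167 (adjusted p = 0.228). In males the change was -0.25 ± 0.167 (adjusted p = 0.392), with overlap. The ratio of Smad2 to Smad3 within a library passed in none of its 4 comparisons either (adjusted p from 0.457 to 0.729, two-sided exact permutation).

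Smad7, the inhibitory SMAD that the pathway itself induces, showed near-equal changes in both sexes without passing the test: -0.44 ± 0.185 in males (adjusted p = 0.148) and -0.43 ± 0.185 in females (adjusted p = 0.239). Male controls ranged from 2065 to 2879. Males on PLX3397 had 2678, 1444, 1498 and 1882, so that replicate 1 alone lay inside the control range. Without it the male change was -0.63 (adjusted p = 0.0199), and with array weights it was -0.55 (adjusted p = 0.0407). In females the ranges were 2133 to 3335 on control chow and 1711 to 2112 on PLX3397, with no overlap.

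Of the co-repressor genes, whose products bind SMADs and block transcription, Ski fell in males and Skil passed the test in neither sex. Ski had 7780, 8427, 8035 and 7314 normalised read counts in male controls and 5074, 5629, 4609 and 5517 in males on PLX3397. These groups lay far apart, and Ski fell by 0.60 ± 0.126 (adjusted p = 0.00431), a call kept under all 28 alternatives. In females it had 11060, 11378, 13087 and 8139 on control chow and 9986, 9092, 11919 and 10416 on PLX3397. The female groups overlapped widely, with a change of -0.06 ± 0.126 (adjusted p = 0.872). Skil changed by -0.05 ± 0.161 in males (adjusted p = 0.906) and by -0.23 ± 0.161 in females (adjusted p = 0.54), and its values ran from 4401 to 7711 with overlap between all groups.

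**Figure D2:**
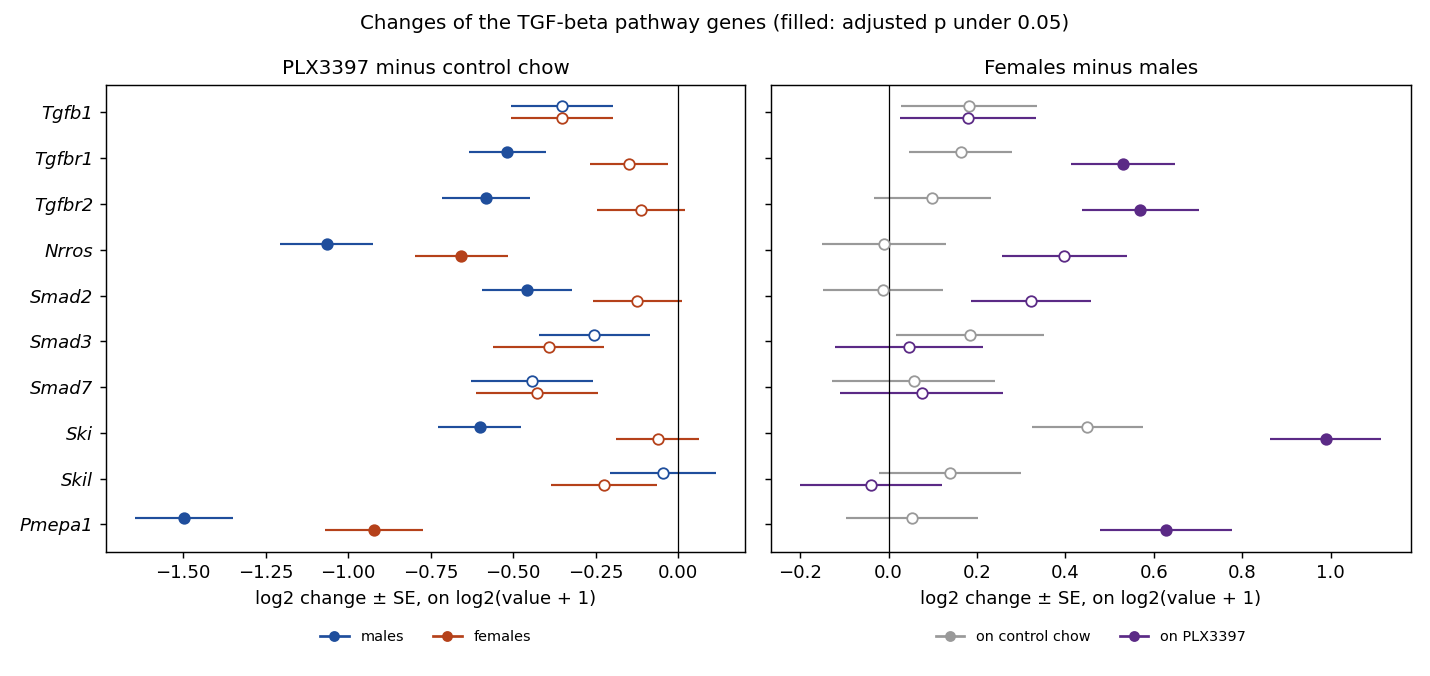
Log2 change of each gene with its SE (n = 4 libraries a group), on PLX3397 against control chow in males and females (left) and in females against males on each chow (right). Filled points passed the test: 6 genes in males and 2 in females on the left, and 4 genes on PLX3397 and 0 on control chow on the right.

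In females, then, 2 of the 10 genes fell, Pmepa1 and Nrros, and 0 rose. Of all genes tested 5.34% changed in females, 2.67% fell and 2.67% rose. Nrros, Smad3, Smad7 and Pmepa1, 4 of the 10, were lower without overlap between groups, beside 5.26% of all genes. The median change of the 10 genes was -0.29, and that of all genes was -0.00322. The count stayed at 2 without the libraries that stood apart and under every other alternative.

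Whether the response differed by sex was tested as the difference between the responses, females minus males. None of the 10 genes passed (limma adjusted p), as 0% of all genes did. At an unadjusted p under 0.05 there were 4 of the 10 (Ski, Pmepa1, Tgfbr2 and Tgfbr1), beside 2010 of all genes, or 10.3%. Voom weights also called 0 genes. The difference was 0.54 ± 0.178 for Ski (adjusted p = 0.308) and 0.58 ± 0.211 for Pmepa1 (adjusted p = 0.355). It was 0.47 ± 0.188 for Tgfbr2 (adjusted p = 0.397), 0.37 ± 0.166 for Tgfbr1 (adjusted p = 0.459) and 0.41 ± 0.200 for Nrros (adjusted p = 0.503). For Tgfb1 and Smad7 it was near 0, at -0.000827 ± 0.217 and 0.02 ± 0.261. A sex difference in the response of any of these genes was thus not shown, and the SEs leave room for differences of the sizes given.

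Between the sexes on control chow, 0 of the 10 genes passed, as did 0.0663% of all genes. Of the 10 genes 1, Ski, had an unadjusted p under 0.05, beside 5.19% of all genes. It was higher in females by 0.45 ± 0.126 (adjusted p = 0.769). Of the female controls, 3 lay at 11060 or above and replicate 4 lay at 8139, inside the male control range of 7314 to 8427. Nrros and Smad2 were at nearly the same level in both sexes, with differences of -0.01 ± 0.141 and -0.01 ± 0.136.

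Among mice on PLX3397, 4 of the 10 genes were higher in females than in males: Ski, Pmepa1, Tgfbr2 and Tgfbr1. Over all genes 5.43% passed this test and 4.28% were higher in females. For Tgfbr1, Ski and Pmepa1, 3 of the 10 genes, every treated female lay above every treated male, as for 6.76% of all genes. The median of the 10 genes was 0.36, beside -0.02 for all genes. Ski differed most, with females between 9092 and 11919 and males between 4609 and 5629, a difference of 0.99 ± 0.126 (adjusted p = 0.000899) that passed under all 28 alternatives. Pmepa1 was higher by 0.63 ± 0.149 (adjusted p = 0.0255), with 8799 in the lowest female and 8046 in the highest male. Tgfbr1 was higher by 0.53 ± 0.118 (adjusted p = 0.0184), with 43846 in the lowest female and 42849 in the highest male. Tgfbr2 was higher by 0.57 ± 0.133 (adjusted p = 0.0231), and male replicate 1, at 28544, overlapped with the lowest females.

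Apart from Ski, these calls depended on the scaling and on single libraries. With equal library totals the median of all genes became -0.22, the calls over all genes went from 838 higher and 226 lower in females to 196 and 375, and Ski alone of the 10 genes passed. With quantile normalisation, measured from the median of all genes, the differences went from 0.55 to 0.23 for Tgfbr1, from 0.59 to 0.36 for Tgfbr2, from 0.65 to 0.45 for Pmepa1 and from 1.01 to 0.83 for Ski. Without male PLX3397 replicate 2, Ski alone passed (Tgfbr1 adjusted p = 0.0676, Tgfbr2 0.0822, Pmepa1 0.0903). Without male PLX3397 replicate 3 or female PLX3397 replicate 3 the calls of Tgfbr2 (adjusted p = 0.074 and 0.0718) and Pmepa1 (0.0718 and 0.0757) ended, and without female PLX3397 replicate 4 that of Tgfbr2 (0.0518). Nrros (0.40 ± 0.141, adjusted p = 0.113) and Smad2 (0.32 ± 0.136, adjusted p = 0.177) did not pass, and the differences of Tgfb1, Smad3, Smad7 and Skil lay between -0.04 and 0.18.

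**Figure D3:**
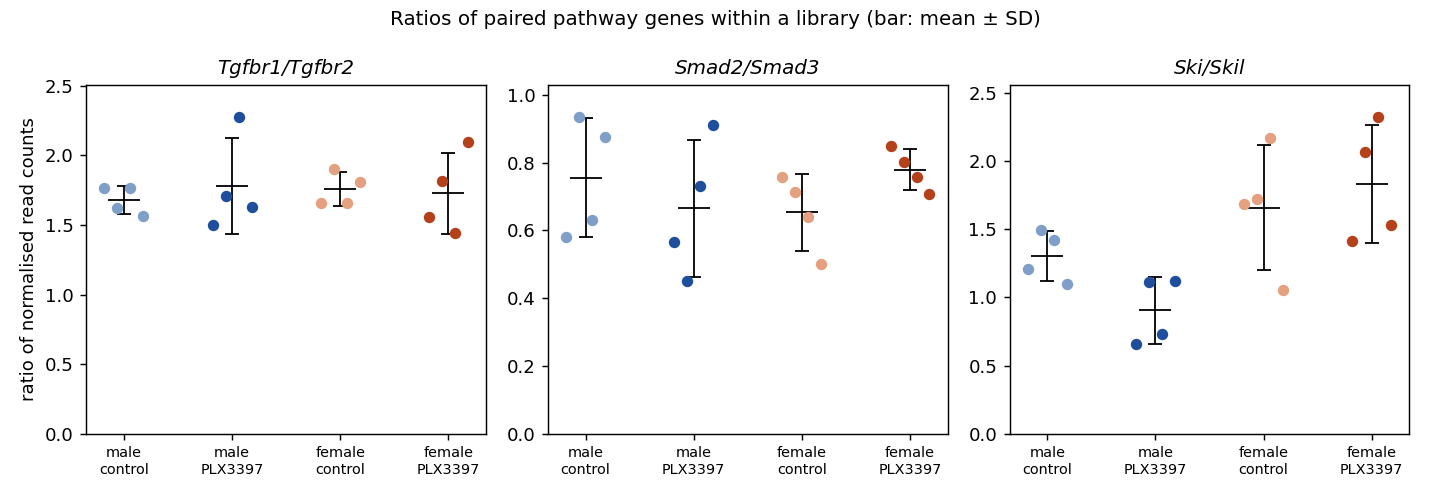
Ratio of the normalised read counts of paired genes within each library (points, replicates 1 to 4 from left to right), with the group mean and SD as bars, on linear axes from 0. The ratio of Tgfbr1 to Tgfbr2 had group means of 1.68 to 1.78, and that of Ski to Skil was at most 1.12 in males and at least 1.42 in females on PLX3397.

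The balance of the co-repressor genes was taken as the ratio of Ski to Skil within a library, a measure that scaling between libraries does not touch and that was chosen after the values were seen. On PLX3397 it was 0.658, 1.12, 0.732 and 1.12 in males and 1.42, 2.07, 2.32 and 1.53 in females, with no overlap. By two-sided exact permutation p was 0.0286, the smallest that 4 libraries against 4 allow, and 0.343 after adjustment over the 12 tests of 3 ratios. Male controls had 1.30 ± 0.182 and males on PLX3397 0.906 ± 0.245 (exact permutation p = 0.0857, adjusted p = 0.457). Female controls had 1.66 ± 0.458 and females on PLX3397 1.83 ± 0.433 (exact permutation p = 0.629). The separation by sex on PLX3397 restates that of Ski, and with these group sizes a lone comparison among 12 could not have gone below the adjusted 0.343.

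Between libraries of a group the 10 genes had SDs of 0.18 (Tgfbr1) to 0.28 (Smad7) on the log2 scale, in the range around the median of 0.22 over genes with a mean of at least 1000. In male PLX3397 replicate 1 and in male control replicate 1, 9 of the 10 genes were above their group mean, with median deviations over the 10 genes of 0.25 and 0.08. For 9 of the 10 genes the lowest group mean was that of males on PLX3397, and for Skil it was that of females on PLX3397.

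For Pmepa1, Nrros and Ski, whose group means spanned at least 1 on the log2 scale, the genes with the most similar course over the 16 libraries were found among 13595 genes. Likeness was the mean absolute difference of log2 values, each centred on its own mean. Nearest to Pmepa1 were Sox4 (0.106), Pnp (0.11) and Ptgs1 (0.113), and nearest to Nrros were Slco2b1, Cops4 and Ckb (0.109 each). Ski had no equally close gene, the nearest being Sars, Ddx3x and Tmem248 at 0.151 to 0.153. Sox4 went from 12214 to 4538 in males and from 11734 to 6091 in females, group means that show the course shared with Pmepa1.

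**Figure D4:**
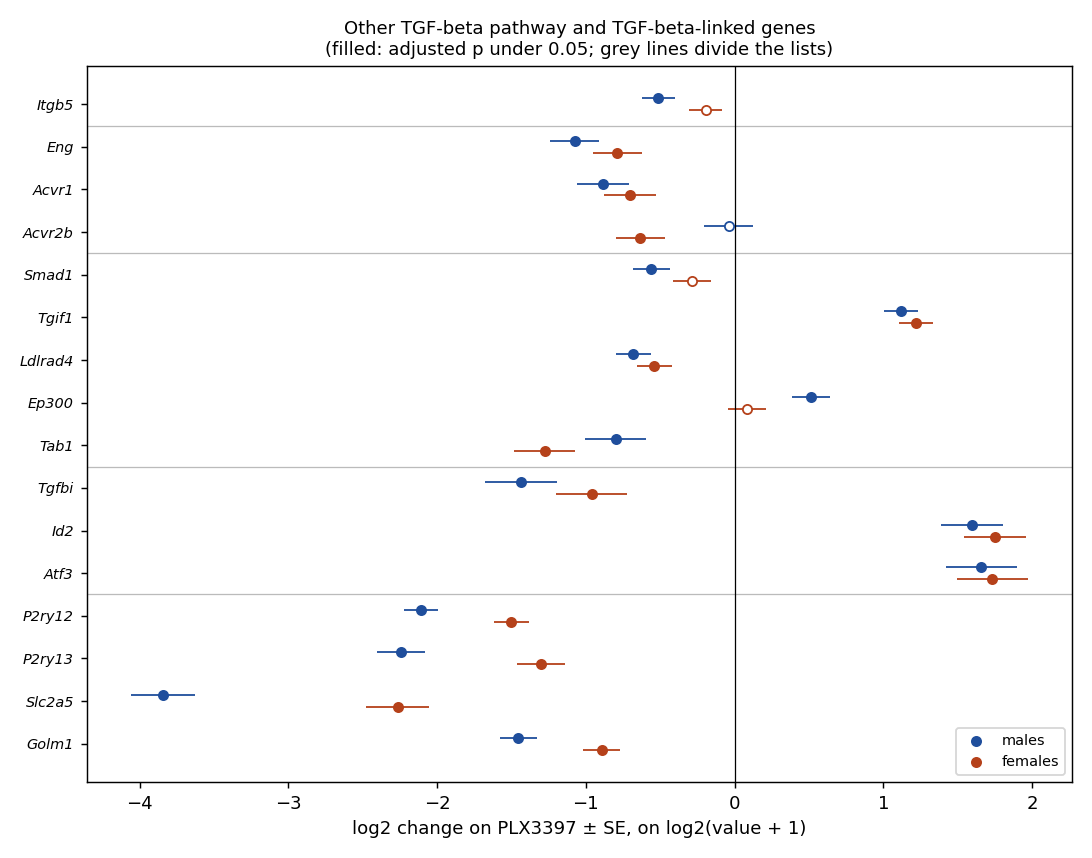
Log2 change on PLX3397 with its SE (n = 4 libraries a group) in males and females for further genes of the pathway and genes linked to it, with grey lines between the lists. Eng, Acvr1, Ldlrad4, Tab1 and the microglial genes lay below 0 in both sexes, and Tgif1, Id2 and Atf3 lay above 1 in both.

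Other genes of the pathway came from lists by role. Of 20 other ligand and activator genes 10 passed the filter, and Tgfb2, Tgfb3, Lrrc32 and Itgb8 did not. In males 1 fell and 0 rose, beside 7.52% and 4.16% of all genes. In females 0 passed, beside 5.34% of all genes, and the medians were 0.21 in males and 0.19 in females. The one that fell was Itgb5, an integrin subunit gene, by 0.51 ± 0.109 (adjusted p = 0.00479), a call that ended with quantile normalisation (adjusted p = 0.126). Of 13 other receptor and co-receptor genes 9 were tested. In males 2 fell, beside 7.52% of all genes, in females 3 fell, beside 2.67%, and 0 rose in either. Eng, the gene of the co-receptor endoglin, had 4413, 5146, 4081 and 4957 normalised read counts in male controls and 2743, 1831, 1813 and 2553 in males on PLX3397, with no overlap. It fell by 1.08 ± 0.166 (adjusted p = 0.000366) in males and by 0.79 ± 0.166 (adjusted p = 0.00848) in females. Endothelial cells also express Eng, and the 9 markers of endothelial cells and pericytes summed to 1027 to 1710 in male controls and 410 to 571 in males on PLX3397, and to 1328 to 1516 and 523 to 823 in females. Of the 4 tested, 2 fell in males (Pecam1 and Pdgfrb) and 1 in females (Pecam1). Flt1 and Cdh5 did not pass, with changes of 1.15 ± 1.43 and 0.78 ± 0.98 in males and of -0.37 ± 1.43 and -0.37 ± 0.98 in females. Cldn5 was at 0 in every male library and every female control. The part of these markers in the fall of Eng was not tested. Acvr1, a type I receptor gene of the bone morphogenetic protein branch, fell by 0.88 ± 0.174 (adjusted p = 0.00277) and 0.70 ± 0.174 (adjusted p = 0.0235). Its female call ended without PLX3397 replicate 1 or 2 or control replicate 1 or 3 (adjusted p = 0.0562, 0.0769, 0.0636 and 0.0789). Acvr2b, an activin receptor gene, fell in females by 0.63 ± 0.162 (adjusted p = 0.0281) and changed by -0.04 ± 0.162 in males, and the difference between these responses did not pass. The female call ended without PLX3397 replicate 1, 2 or 3 (adjusted p = 0.0915, 0.0653 and 0.055), without control replicate 1, 3 or 4 (0.093, 0.0509 and 0.0842), and in a fit to the groups compared alone (0.118).

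Among 24 other SMAD genes and SMAD regulators 23 were tested, of which 2 rose and 5 fell in males and 1 rose and 2 fell in females. Over all genes 4.16% rose and 7.52% fell in males, and 2.67% did so each way in females. Tgif1, the gene of a co-repressor that binds SMAD2 and SMAD3, rose in both sexes. It had 1744, 1723, 1987 and 2002 normalised read counts in male controls and 4061, 4104, 4613 and 3483 in males on PLX3397, a rise of 1.12 ± 0.114 (adjusted p = 7.1e-06). In females it rose from 1822, 1738, 1942 and 2209 to 4623, 4986, 3966 and 4345, by 1.22 ± 0.114 (adjusted p = 6.73e-06). No treated library of either sex overlapped with a control. Ep300, the gene of the acetyltransferase p300, rose in males (0.51 ± 0.129, adjusted p = 0.0143), a call that ended without male PLX3397 replicate 2 or male control replicate 3 (adjusted p = 0.0534 and 0.0503). Ldlrad4, whose product holds SMADs away from the receptor as that of Pmepa1 does, fell in both sexes, by 0.68 ± 0.12 (adjusted p = 0.0011) in males and by 0.54 ± 0.12 (adjusted p = 0.0118) in females. Tab1, a partner of the kinase TAK1 that TGF-beta also activates, fell by 1.28 ± 0.203 in females (adjusted p = 0.000947) and by 0.80 ± 0.203 in males (adjusted p = 0.0157). Smad1 fell in males by 0.56 ± 0.126 (adjusted p = 0.00739). The other falls in males, named after their values were seen, were those of Smad5 and Strap.

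Of 22 genes listed as ones that TGF-beta can induce in some cell types 19 were tested. Whether TGF-beta raises or lowers each of them in microglia was not tested. In males 5 rose and 2 fell (median 0.58), beside 4.16% and 7.52% of all genes, and in females 3 rose and 1 fell (median 0.21), beside 2.67% each way. Id2, a gene of an inhibitor of basic helix-loop-helix factors, went from 1024, 1099, 1052 and 888 to 3026, 2946, 2629 and 3723 in males, a rise of 1.59 ± 0.208 (adjusted p = 7.88e-05). It rose by 1.75 ± 0.208 in females (adjusted p = 6.93e-05). The stress-responsive factor gene Atf3 rose by 1.66 ± 0.238 (adjusted p = 0.000194) and 1.73 ± 0.238 (adjusted p = 0.000284), and Tgif1 is on this list too. Tgfbi, a matrix protein gene named for its induction by TGF-beta, fell by 1.44 ± 0.241 in males (adjusted p = 0.000723) and by 0.96 ± 0.241 in females (adjusted p = 0.025). The female call ended without PLX3397 replicate 1 or 3 (adjusted p = 0.086 and 0.0663), without control replicate 1, 2 or 4 (0.0859, 0.0692 and 0.0664), and in a fit to the groups compared alone (0.0759). Angptl4 also rose in males and Rhob was the other fall, both named after their values were seen.

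All 24 microglial genes tied to TGF-beta were tested. In males 20 fell and 0 rose (median -0.94), beside 7.52% and 4.16% of all genes. In females 15 fell and 1 rose (median -0.41), beside 2.67% each way. The list was drawn up with results of these libraries known and holds markers of resting microglia, so its direction is not independent evidence. In females the transporter gene Slc2a5 fell by 2.27 ± 0.213 (adjusted p = 6.73e-06), the purinergic receptor gene P2ry13 by 1.30 ± 0.162 (adjusted p = 0.000112) and Golm1 by 0.89 ± 0.123 (adjusted p = 0.000287). Among mice on PLX3397, 16 of the 24 were higher in females and 0 lower, beside 4.28% and 1.15% of all genes. In this comparison the calls over all genes went from 838 higher and 226 lower to 196 and 375 with equal library totals. Gas6, a ligand gene of the AXL receptor, was higher there by 0.98 ± 0.126 (adjusted p = 0.000899), with 9068 to 12546 normalised read counts in females and 4542 to 6656 in males.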

How the data were processed

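RNA was sequenced from sorted cortical microglia in 16 libraries, 4 in each of 4 groups taken from the sample labels. Per the labels' protocols, 500 pg of total RNA was amplified with a SMARTer kit and 150 pg of cDNA went into Nextera XT libraries. The table deposited by the authors holds a signal per gene, read counts divided by a factor per library, per its name and values. GRCm39, Salmon 1.5.2, featureCounts 2.0.1, Subread, STAR 2.7.9a and bcl2fastq 2.19.1 appear in the submitters' processing notes, without roles; the normalisation formula and annotation release are not given in the sources used here. Symbols were matched for 51029 of 53850 identifiers. Exon lengths came from GENCODE M21 (GRCm38), and there no exon of the 10 genes overlapped with that of another gene.

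With a pseudocount of 1, log2 values were tested in R 4.3.3 by limma 3.58.1 (intensity trend, group means fitted over the 16 libraries, two-sided tests, Benjamini-Hochberg over 19594 genes, adjusted p under 0.05), a procedure tested on simulated data. Ratios were compared by exact permutation (scipy 1.17.1). The rule named the 10 genes, up to 4 passing genes with the smallest p per further list and comparison, and the nearest 3 genes in course. The 10 genes and all lists were chosen with earlier results of these data known. Alternatives were other pseudocounts, filters, scalings, weights and fits, a replicate block and libraries left out. All columns were used. Values of some listed genes are not reported here.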

Additional observations from a re-analysis of the deposited data

Results flagged for a closer look

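Tgfb1 in males on PLX3397 had its highest library, replicate 1, far from the others of the group: 10147 normalised read counts, with the other 3 libraries between 6225 and 6562. The gap to the nearest library, as a share of the group's range, exceeded Dixon's limit at 95% for 4 samples. The test was run on 40 groups of 4 libraries (10 genes in 4 groups), and chance flags about 1 in 20 such groups. In the same library 9 of the 10 genes were above their group mean, as they were in male control replicate 1.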

How the results depend on the processing

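For the 10 genes, 869 values kept their direction and side of the threshold under the alternatives, 43 lost the call, 3 gained one and 3 changed sign. The count of the 10 genes that fell stayed at 2 in females, lay between 4 and 7 in males, and 0 passed throughout for the difference between responses and for control chow. The count of those higher in females than in males on PLX3397 was 1 with upper-quartile scaling, equal library totals, quantile normalisation, the groups compared alone and voom weights, 2 with male control replicate 4 and male PLX3397 replicate 3 both left out, and 1 to 4 with single libraries left out. There Tgfb1 changed sign with equal library totals (-0.0198), quantile normalisation (-0.00897) and voom weights (-0.0224). Over all genes this comparison gave 1064 calls, 669 without the filter, 606 with upper-quartile scaling, 571 with equal totals, 467 with quantile normalisation, 44 with the groups compared alone, 470 with voom weights and 345 with both libraries left out. Single libraries left out gave 332 to 1242, with 332 and 469 without male PLX3397 replicates 2 and 3 and 677, 480 and 709 without female PLX3397 replicates 2, 3 and 4. The cause was not tested.

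In males all genes gave 2289 calls and 1518 with both libraries left out, where fewer samples entered. The difference between responses gave 1 call with a pseudocount of 5, 2 with both libraries left out and 0 to 6 with single libraries left out (6 without male PLX3397 replicate 4). Control chow gave 7 with voom weights and 11 to 20 with single libraries left out (20 without male control replicate 1). Of 50 changes of the 10 genes, 17 were smaller than their SE and were not followed by sign. Of these 11 changed sign somewhere and 0 passed, with a lowest adjusted p of 0.362.

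Replicate numbers showed no clear pairing of the libraries. In their deviations same-numbered libraries correlated between -0.0575 and 0.205 (median 0.0174). Those with different numbers correlated between -0.107 and 0.0801 (median -0.00575), and 5 of 16 libraries correlated best with their own number. These values cannot exclude a weak pairing. With the replicate block, 5 of the 10 genes fell in males, 2 in females, and 4 were higher in females on PLX3397, with 2136, 962 and 863 calls over all genes. The block ended the male call of Smad2 (adjusted p = 0.0595), the female call of Acvr1 (0.0505) and the calls of Inhba and Angptl4 between the sexes on PLX3397 (0.0678 and 0.0687), and no other call of a named gene. It gave 12 calls on control chow and 0 for the difference between responses. Counting error could not be separated, since the values are not whole reads. Calls of Acvr2b, Angptl4 and Fkbp1a between the sexes on PLX3397 ended under 12, 21 and 10 of 28 alternatives, and that of Inhba under 19 of 27, since it did not pass the stricter filter.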
